A study of Rattus norvegicus with 12 samples.

Results

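Glutamate receptor genes and their auxiliary subunits were examined in bulk RNA-seq libraries of primary rat oligodendrocyte precursor cells (OPCs). The set holds 10 genes, chosen by symbol among the 30562 genes of the count table: the AMPA receptor subunits Gria1, Gria2, Gria3 and Gria4, the kainate receptor subunits Grik2 and Grik5, the metabotropic receptors Grm5 and Grm7, and the auxiliary subunits Cacng4 and Cacng5. Each symbol was found in 1 row. The study compared OPCs preconditioned by mild hypoxia with normally cultured OPCs, and asked how the exposure changes their transcriptome. There were 6 libraries of mild-hypo-OPCs, exposed to an FiO2 of 5%, and 6 of standard OPCs, the controls, for which the labels give no FiO2 percentage. The cells of both groups were wild type, labelled as brain OPCs, and came from cultures of newborn Sprague-Dawley rat cortex, in which OPCs are shaken off a mixed glial layer and grown with FGF-2 and PDGF-AA. The labels give the exposure as 6 hours, whereas the methods of the study state it in days. A figure legend of the study speaks of biological replicates, but of fewer per group than were deposited, and nothing says which libraries came from separate cultures. Some of the 6 libraries of a group may thus share a culture. Apart from the intervals on summed counts, every SD, interval and p-value here measures the spread between these libraries, which may in part be technical.

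OPCs carry glutamate receptors and receive synapses from neurons, which makes them unusual among glia. AMPA and kainate receptors are ion channels built from 4 subunits; GluA2, the product of Gria2, keeps calcium out of an AMPA receptor once its transcript has been edited, and transmembrane AMPA receptor regulatory proteins (TARPs), the family of Cacng4 and Cacng5, bind AMPA receptors and tune their traffic and gating. Metabotropic receptors act through G proteins instead: mGlu5, from Grm5, raises intracellular calcium, and mGlu7, from Grm7, lowers cyclic AMP.

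The libraries differed in depth with their group. Total counts spanned 1356079 to 2797513 in the standard OPC libraries, and each mild-hypo-OPC library had more, 4111669 to 9022324, and ribosomal RNA rows took 23.9 to 38.4% and 17.4 to 25.2% of them. Trimmed mean of M-values (TMM) factors lay between 0.809 and 0.945 in the former and between 1.08 and 1.23 in the latter. Levels below are CPM, counts scaled to a common library total with these factors, and fold changes are given on the log2 scale for mild-hypo-OPCs relative to standard OPCs. With scaling by library size alone, the median over all genes went from -0.00 to 0.43 and that over the 7 tested members from -0.03 to 0.41, so directions are relative to the TMM reference. OPC markers were high in both groups (summed CPM 3083 to 3827 in standard OPC libraries, 3726 to 4326 in mild-hypo-OPC libraries), and 7 of the 8 listed were in the table and passed the filter on low counts. In bulk libraries, a change in the number of cells of a type and a change in RNA per cell cannot be told apart.

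Most transcripts of this set overlapped between mild-hypo-OPCs and standard OPCs, and their differences did not pass the test. The exception among the 7 members that passed the filter was Cacng4, a TARP, which was 1.20-fold higher in mild-hypo-OPCs, and its call depended on single libraries. Gria1, the scarcest AMPA subunit by counts, was higher in every mild-hypo-OPC library than in any standard OPC library, on few counts. How many of all genes separate in this way was not counted. By edgeR's quasi-likelihood test at an adjusted p under 0.05, 1 of the 7 was called higher and 0 lower, where 7% of the 8938 genes tested were called higher and 17% lower. At an unadjusted p under 0.05 there were 2, Cacng4 and Grik5, both higher. Every gene called also passes this cut, and the share of all genes that does so was not counted. limma-voom also called 1 member higher and 0 lower (569 and 1428 of all genes), and DESeq2 2 and 0 (795 and 1520). The other 3 members, Gria1, Grm7 and Cacng5, did not pass the filter.

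**Figure D1:**
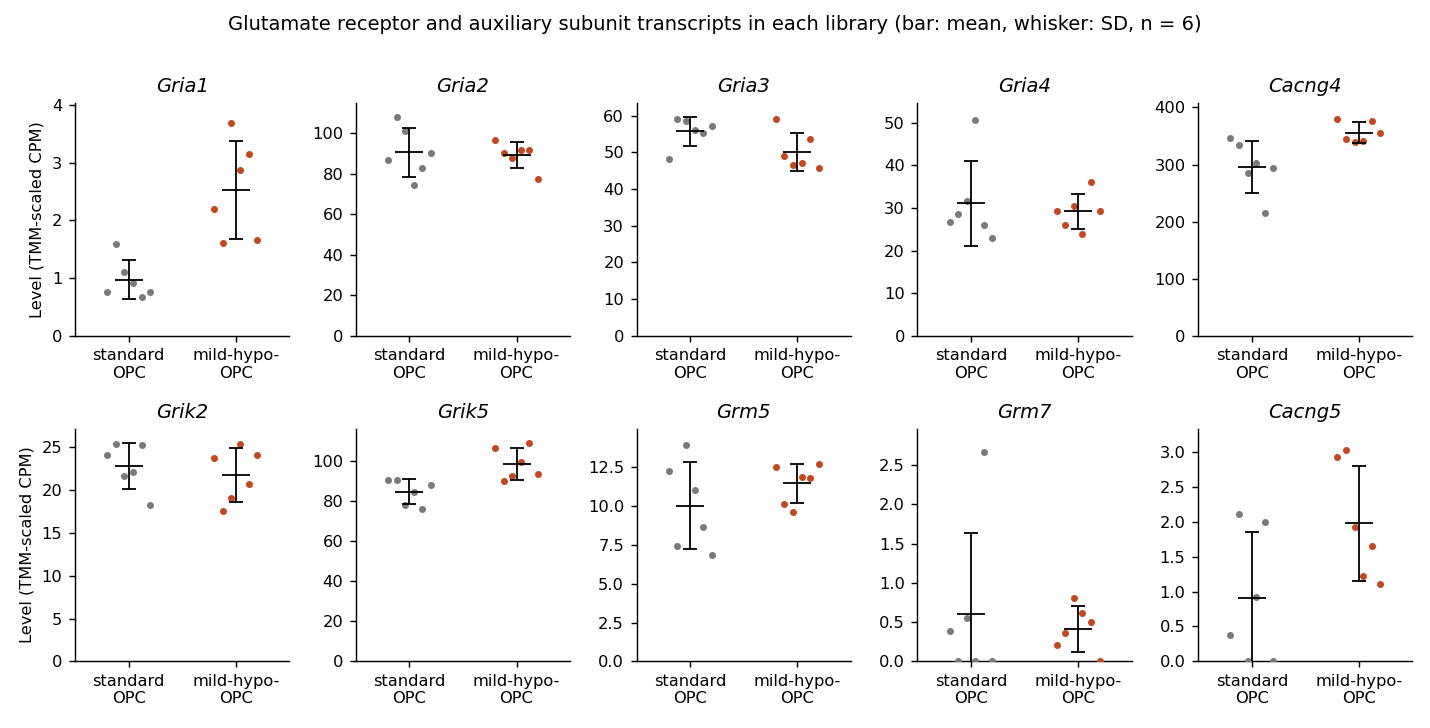
Levels of the 10 members (y axes, TMM-scaled CPM, each from 0) in each of 6 standard OPC libraries (grey) and 6 mild-hypo-OPC libraries (red), with the mean and SD; whiskers that would pass below 0 are drawn to 0. Among these 10 members the groups separate completely only for Gria1, a trait not counted over all genes. The standard OPC libraries of Cacng4 reach from 214.6 to 345.6 CPM.

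Among the AMPA subunits, Gria2 had the most counts, 418 to 927 in mild-hypo-OPC libraries and 81 to 227 in standard OPC libraries. Its level had a lowest, median and highest value of 77.1, 90.9 and 96.7 CPM in mild-hypo-OPCs and of 74.5, 88.4 and 107.7 CPM in standard OPCs. The range of the mild-hypo-OPCs lay inside that of the standard OPCs. The log2 fold change was -0.03 (SE 0.09, 95% interval -0.22 to 0.16), with an adjusted p of 0.851 by edgeR's quasi-likelihood test.

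Gria3, encoding GluA3, was at 45.7, 48.0 and 58.9 CPM in mild-hypo-OPCs and at 48.2, 56.7 and 59.1 CPM in standard OPCs. Of the mild-hypo-OPC libraries 1 of 6 exceeded the mean of the standard OPCs, while the ranges overlapped. The log2 fold change of -0.14 (SE 0.09, 95% interval -0.33 to 0.05) did not pass the test (edgeR, adjusted p = 0.279). Standard OPC replicate 1, at 48.2 CPM, stood below the other 5, which lay between 55.3 and 59.1 CPM.

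Gria4 encodes GluA4, a subunit of fast-closing AMPA receptors. It was at 24.0, 29.3 and 36.2 CPM in mild-hypo-OPCs and at 22.9, 27.6 and 50.6 CPM in standard OPCs, the highest value coming from replicate 4 alone. The other 5 standard OPC libraries lay between 22.9 and 31.7 CPM, inside or near the range of the mild-hypo-OPCs. The log2 fold change was -0.05 (SE 0.15, 95% interval -0.36 to 0.26; edgeR, adjusted p = 0.842), and it was 0.10 without that library.

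Gria1 encodes GluA1, the subunit through which AMPA receptor traffic is regulated in many neurons. It had 9 to 23 counts in each mild-hypo-OPC library and 1 to 3 in each standard OPC library, and its level was at 1.60, 2.53 and 3.69 CPM against 0.666, 0.842 and 1.58 CPM. The groups did not overlap, although the lowest mild-hypo-OPC library was only just above the highest standard OPC library. Summed over libraries there were 95 and 10 counts, a ratio of rates of 2.57 with an exact 95% interval of 1.34 to 5.52 that covers counting error only. Without the filter on low counts, edgeR's quasi-likelihood test gave a log2 fold change of 1.37 (SE 0.46, 95% interval 0.44 to 2.30, adjusted p = 0.0419). In that fit 4.22% of 17391 genes were called higher and 8.72% lower, and 2 of the 10 members, Gria1 and Cacng4, were called higher and 0 lower. Without the filter, limma-voom called 3 and 0 members (999 and 4247 of all genes) and DESeq2 2 and 0 (729 and 1566). In the edgeR fit 4 members had an unadjusted p under 0.05, and the share of all genes at that cut was not counted.

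The Gria1 call was lost with DESeq2 (adjusted p = 0.0642), after libraries were thinned to the smallest total (adjusted p = 0.121) and with the replicate number as a block (adjusted p = 0.0748). The call was lost too with a term for log2 total count (adjusted p = 0.719), which separates the groups as the exposure does. It was also lost without mild-hypo-OPC replicates 3, 4 or 5 (edgeR, adjusted p = 0.0842, 0.0583 and 0.0705) and without standard OPC replicates 1, 3, 4, 5 or 6 (adjusted p = 0.0907, 0.0653, 0.0621, 0.0859 and 0.0731), the log2 fold change staying between 1.02 and 1.75 in all alternatives run.

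**Figure D2:**
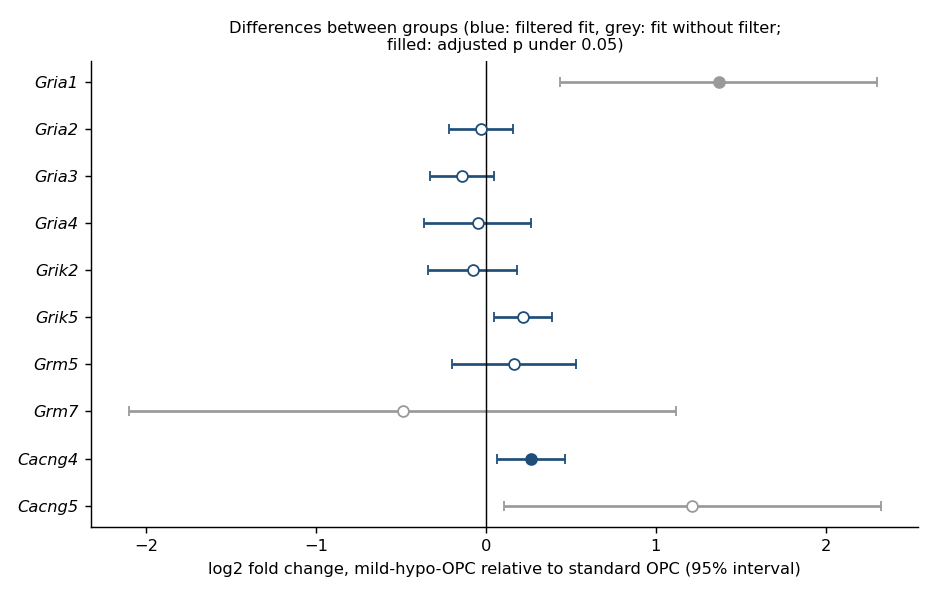
Log2 fold change (x axis, mild-hypo-OPC relative to standard OPC) of each member with its 95% interval from edgeR's quasi-likelihood fit, for 6 libraries per group. Blue points come from the filtered fit and grey points from the fit without a filter; filled points, Gria1 and Cacng4, had an adjusted p under 0.05.

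The share of each subunit in the counts of its own class does not depend on how libraries are scaled, and it was compared by a two-sided exact permutation test over the 6 and 6 libraries, with adjustment over 7 shares. Gria2 made up 52.2 ± 2.24% (SD, n = 6) of the counts of Gria1 to Gria4 in mild-hypo-OPCs and 50.7 ± 5.04% (SD, n = 6) in standard OPCs. The corresponding means were 29.3 ± 1.31% and 31.3 ± 1.76% for Gria3 and 17.1 ± 2.13% and 17.4 ± 5.23% for Gria4 (SD, n = 6 each). These are shares of counts, and longer transcripts yield more counts, so they do not give the makeup of the receptors. In both groups GluA2 transcripts gave about as many counts as those of the other subunits together.

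Gria1 was the subunit whose share differed. It took 0.959, 1.44 and 2.19% of the AMPA subunit counts (lowest, median and highest) in mild-hypo-OPCs and 0.405, 0.488 and 0.804% in standard OPCs. Every mild-hypo-OPC library lay above every standard OPC library, and the difference of the means was 0.939 percentage points (exact permutation p = 0.00216, the smallest that 6 against 6 can give; adjusted p = 0.0152). Leaving out 1 library keeps the groups fully apart, so the p of each of 12 such tests was fixed at its minimum. That was an exact permutation p of 0.00433 (adjusted p from 0.0152 to 0.0303), and these tests add nothing to the separation itself. After thinning the call held (exact permutation test, adjusted p = 0.0152). It was lost when medians were compared (adjusted p = 0.0909), and with replicate numbers paired (adjusted p = 0.219). In the paired sign-flip test its unadjusted p of 0.03125 was the smallest that 6 pairs can give.

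For the other AMPA subunits the shares overlapped. The difference was 1.43 percentage points for Gria2 (exact permutation test, adjusted p = 0.939), -2.04 for Gria3 (p = 0.0519, adjusted p = 0.121) and -0.33 for Gria4 (adjusted p = 0.944). Leaving out mild-hypo-OPC replicate 1 brought the Gria3 share past the threshold, with a difference of -2.48 percentage points (exact permutation test, adjusted p = 0.0303).

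**Figure D3:**
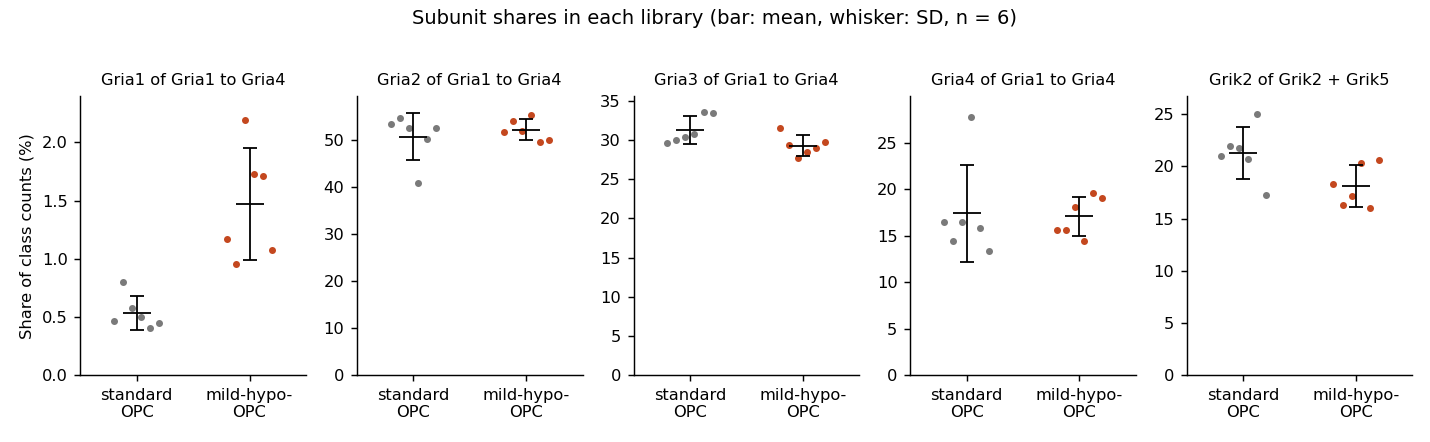
Share of counts (y axes, percent, each from 0) taken by each AMPA subunit among Gria1 to Gria4, and by Grik2 among Grik2 and Grik5, in each standard OPC (grey) and mild-hypo-OPC (red) library, with mean and SD. The Gria1 shares do not overlap between the groups, and 1 standard OPC library stands apart for Gria2 (40.9%) and Gria4 (27.8%).

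Neither kainate subunit was called between the groups. Grik2 encodes GluK2, which can form a channel on its own, and Grik5 encodes GluK5, which binds glutamate tightly but needs a partner such as GluK2. Grik2 was at 17.6, 22.3 and 25.4 CPM in mild-hypo-OPCs and at 18.3, 23.1 and 25.3 CPM in standard OPCs. The ranges coincided almost fully, and the log2 fold change was -0.08 (SE 0.13, 95% interval -0.34 to 0.18; edgeR, adjusted p = 0.688).

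Grik5 was at 90.1, 96.3 and 108.8 CPM in mild-hypo-OPCs and at 76.0, 86.2 and 90.6 CPM in standard OPCs. Of the mild-hypo-OPC libraries 5 of 6 lay above the highest standard OPC library, and all 6 exceeded the standard OPC mean. The log2 fold change was 0.22 (SE 0.08, 95% interval 0.05 to 0.39), and it did not pass the test over all genes (edgeR, adjusted p = 0.0574). It did pass with DESeq2 (adjusted p = 0.0268), with upper-quartile scaling (adjusted p = 0.0155), with library size alone (adjusted p = 2.21e-05) and with ribosomal RNA rows removed (adjusted p = 0.0423). The edgeR fits without mild-hypo-OPC replicates 2, 3 or 6 and without standard OPC replicate 1 also called it (adjusted p = 0.0344, 0.0408, 0.0333 and 0.0435). A term for log2 total count, which separates the groups as the exposure does, brought the log2 fold change to 0.06 (edgeR, adjusted p = 0.978). With the gene span trend removed the log2 fold change was 0.14 (edgeR, adjusted p = 0.166).

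Relative to each other, Grik2 took 16.0, 17.7 and 20.6% of the counts of both kainate subunits in mild-hypo-OPCs and 17.3, 21.4 and 25.0% in standard OPCs. None of the 6 mild-hypo-OPC libraries reached the standard OPC mean of 21.3%. The difference of the means, -3.16 percentage points, had an exact permutation p of 0.0281 and did not pass after adjustment over the 7 shares (adjusted p = 0.0985). It did pass without standard OPC replicate 6, the library with the lowest share of its group (-3.96 percentage points, exact permutation test, adjusted p = 0.0152).

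Of the metabotropic receptors, Grm5 was the one with counts in every library, 57 to 120 per library in mild-hypo-OPCs but 9 to 32 in standard OPCs. Its level was at 9.63, 11.8 and 12.7 CPM against 6.87, 9.85 and 13.9 CPM, with the standard OPCs spread on both sides of the mild-hypo-OPCs. The log2 fold change was 0.17 with a wide interval (SE 0.17, 95% interval -0.20 to 0.53; edgeR, adjusted p = 0.527), so changes between these bounds are not excluded.

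Grm7 was barely present. The mild-hypo-OPC libraries held 0 to 5 counts each and 15 in all, and the standard OPC libraries 0 to 4 and 6 in all; 1 and 3 libraries held no count. The ratio of rates was 0.675 with an exact 95% interval of 0.248 to 2.12 for counting error only, and the fit without a filter gave an adjusted p of 0.714 (edgeR). Of the standard OPC counts 4 of the 6 lay in replicate 5, and without it the log2 fold change turned from -0.49 to 0.77. Grm5 took 92.3 to 100% of the counts of both metabotropic genes in mild-hypo-OPC libraries and 76.5 to 100% in standard OPC libraries, a difference of the means of 1.45 percentage points (exact permutation test, adjusted p = 0.944).

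Promoter sequence bears on these genes because hypoxia-inducible factors bind the core letters ACGTG and GCGTG. A RefSeq table for the GRCr8 assembly holds the window from 250 bases before to 50 after the start of 6 members, Gria4, Grik2, Grik5, Grm5, Grm7 and Cacng5; the promoters of Gria1, Gria2, Gria3 and Cacng4 were not analysed here. With both strands searched, 41.6% of all 33469 windows held a core (19.3% ACGTG, 29.7% GCGTG), and 1 of the 6 members did. It was Grm7, on the plus strand of chromosome 4, with 3 matches to GCGTG; the first and the last are on the strand of the gene and the other is on the opposite strand. The 30 bases around each are shown because they are the only such letters in the 6 windows, with the core in capitals.
Grm7, chr4:145286490-145286519, core from base -224: gctagaacatggGCGTGggtgttggtggac
Grm7, chr4:145286652-145286681, core from base -62: cccttacctcagCACGCagcccctccctgc
Grm7, chr4:145286668-145286697, core from base -46: cagcccctccctGCGTGatgatgcaaaccg
Such a match is a run of letters and not a binding site, and Grm7 was the member with the fewest counts.

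The auxiliary subunits lie next to each other in the rat genome: no protein-coding gene stands between Cacng4 and Cacng5 in the GRCr8 annotation. Cacng4 had by far the most counts of the set, 1662 to 3646 in mild-hypo-OPC libraries and 322 to 904 in standard OPC libraries. Its level was at 339.0, 349.6 and 380.3 CPM in mild-hypo-OPCs and at 214.6, 297.5 and 345.6 CPM in standard OPCs. Every mild-hypo-OPC library exceeded the standard OPC mean, 3 lay above the highest standard OPC library, and 5 standard OPC libraries lay below the lowest mild-hypo-OPC library. The standard OPC libraries varied more, with an SD of 46.2 CPM against 18.2 CPM (n = 6 each). Cacng4 rose by a log2 fold change of 0.26 (SE 0.09, 95% interval 0.07 to 0.46; edgeR, adjusted p = 0.0486).

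That adjusted p was just under the threshold. The call was lost without mild-hypo-OPC replicates 1 or 5 (edgeR, adjusted p = 0.0644 and 0.0671), without standard OPC replicates 3, 4 or 6 (adjusted p = 0.0885, 0.0691 and 0.0798), and without replicate 5, the lowest standard OPC library, where the log2 fold change fell to 0.19 (adjusted p = 0.0907). It was also lost with another low-count filter, filterByExpr (adjusted p = 0.0554), with thinning (adjusted p = 0.0730) and after the trend on span was taken out (log2 fold change 0.19, adjusted p = 0.0826), and the direction turned with a term for log2 total count (-0.03, adjusted p = 0.997), which separates the groups as the exposure does.

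Cacng5 was sparse, with 6 to 28 counts in mild-hypo-OPC libraries and 0 to 4 in standard OPC libraries, of which 2 held none. It was at 1.11, 1.79 and 3.02 CPM against 0, 0.651 and 2.11 CPM, so the groups overlapped while all 6 mild-hypo-OPC libraries exceeded the standard OPC mean. Summed counts of 79 and 9 gave a ratio of rates of 2.37 (exact 95% interval 1.19 to 5.38 for counting error only), and the fit without a filter gave a log2 fold change of 1.21 (SE 0.55) that did not pass (edgeR, adjusted p = 0.151); with library size alone it passed (1.58, adjusted p = 0.0116). Cacng4 took 99.1 to 99.7% of the counts of the pair in mild-hypo-OPC libraries and 99.1 to 100% in standard OPC libraries (difference of the means -0.22 percentage points, exact permutation test, adjusted p = 0.390).

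**Figure D4:**
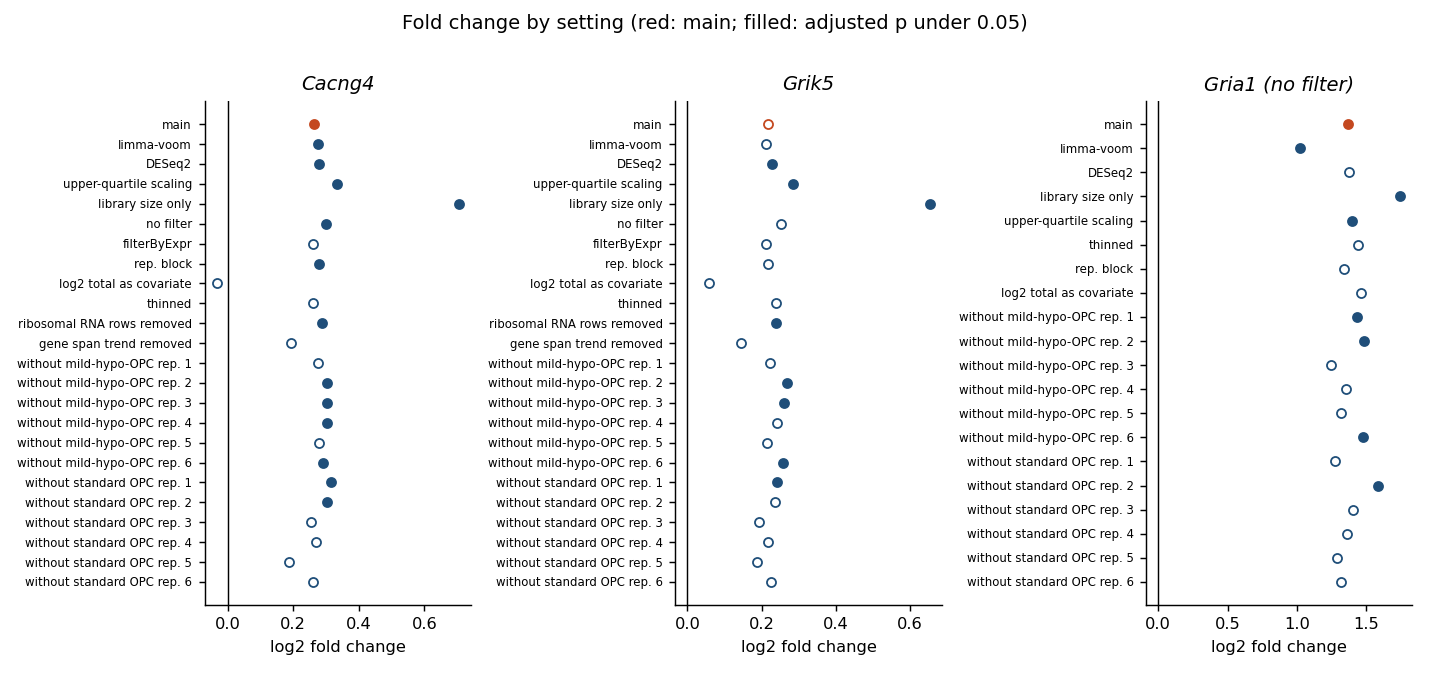
Log2 fold change (x axes) of Cacng4, Grik5 and Gria1 under each processing setting, with the reported setting in red and filled points for an adjusted p under 0.05 (12 libraries, or 11 where 1 is left out; thinned, every library reduced to the smallest total). The values of Cacng4 and Grik5 lie around 0.2 to 0.3 in most settings, while filled and open points alternate.

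The 7 tested members varied together to different degrees from library to library. Over the 12 libraries, after each group's mean was subtracted, Pearson's r of log2 CPM between pairs of members ran from -0.36 for Gria2 and Gria4 to 0.75 for Grik5 and Cacng4, the pair with the lowest adjusted p-values. These are descriptions over libraries that also share their depth. By the same measure Cic, Sart1 and Stk4 were most like Cacng4 (r = 0.97, 0.96 and 0.95), and Cep170, Socs4 and Eif4enif1 most like Gria2 (r = 0.92, 0.92 and 0.91). Lpin1, Nedd4l and Myh14 were most like Grik5 (r = 0.93, 0.91 and 0.87), and Kdm7a, Slc26a2 and Rab2b most like Grm5 (r = 0.91, 0.88 and 0.86). Of these 12 genes only Sart1 was called between the groups (log2 fold change 0.41, edgeR, adjusted p = 0.0416).

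Further NMDA and kainate receptor genes did not pass the test in either direction. Of 7 NMDA receptor subunits only Grin3a passed the filter (log2 fold change -0.09, edgeR, adjusted p = 0.757), and of the further kainate subunits Grik3 and Grik4 did, with log2 fold changes of 0.19 and 0.28 (adjusted p = 0.216 and 0.211) beside a median of -0.00 over all genes. None of the 6 other metabotropic receptors passed the filter, the highest count of any library being 13 (Grm4). Among these NMDA, kainate and metabotropic genes edgeR called 0, as did limma-voom and DESeq2, and 0 had an unadjusted p under 0.05.

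Genes on the list of further auxiliary subunits moved in both directions. Of 18 listed 8 were tested, with 1 higher and 1 lower and a median log2 fold change of 0.06. Cnih1 and Cnih2 encode cornichons. That of Cnih2 escorts AMPA receptors out of the endoplasmic reticulum and stays with the channel. Whether the product of Cnih1 acts on AMPA receptors is not addressed here. Cnih1 was at 66.5, 75.2 and 87.0 CPM in mild-hypo-OPCs and at 79.2, 107.4 and 115.3 CPM in standard OPCs. It fell by 0.44 on the log2 scale (SE 0.10, edgeR, adjusted p = 0.00289). When libraries were scaled by size alone its log2 fold change was -0.01, beside a median of 0.43 over all genes. Cnih2 rose by 0.34 (SE 0.12, edgeR, adjusted p = 0.0368), and by 0.77 when scaled by size alone. Cacng7, another TARP gene, had a log2 fold change of 0.18 (SE 0.08, edgeR, adjusted p = 0.127).

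Of 9 genes for receptor assembly and RNA editing, among them Adarb1, whose product edits the Gria2 transcript, 8 were tested and 0 called (edgeR; limma-voom and DESeq2 also 0; unadjusted p under 0.05 for 0). Of 22 genes for postsynaptic scaffolds and receptor traffic 14 were tested, with a median log2 fold change of 0.14, and 3 rose: Nptxr, a pentraxin receptor that clusters AMPA receptors (0.54, SE 0.12, edgeR, adjusted p = 0.00272), Nsf, an ATPase of membrane fusion that binds GluA2 (0.36, SE 0.10, adjusted p = 0.0122), and Dlg1, the scaffold SAP97 that binds GluA1 (0.33, SE 0.09, adjusted p = 0.0121). None was called lower, by limma-voom or DESeq2 either; Dlgap1 was the gene lower at an unadjusted p under 0.05.

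Of 19 genes of glutamate transport and metabolism 12 were tested, with a median log2 fold change of 0.13, and 2 rose. They were Glul, the glutamine synthetase that turns glutamate into glutamine (0.38, SE 0.09, edgeR, adjusted p = 0.00653), and Slc1a3, a glial glutamate transporter (0.25, SE 0.07, adjusted p = 0.0167); 0 were called lower by edgeR, limma-voom or DESeq2, and 0 were lower at an unadjusted p under 0.05. Glul gave the most counts of the list, with mean levels of 801.6 ± 96.3 and 614.9 ± 71.5 CPM (SD, n = 6). Its groups did not overlap, a trait not counted over all genes. Slc1a2, Slc38a2 and Got1 had log2 fold changes below 0 that did not pass. Downstream of mGlu5, 10 of 15 genes of the Gq pathway were tested and 0 were called (edgeR; limma-voom and DESeq2 also 0; unadjusted p under 0.05 for 0).

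Markers of other cells moved with the groups in part, and these cells can carry the same receptors and transporters. Of 12 neuron markers 7 were tested and 1 rose, Tubb3 (log2 fold change 0.72, SE 0.10, edgeR, adjusted p = 0.000181), and their summed level was 367.4 to 429.1 CPM for mild-hypo-OPCs and 278.6 to 350.9 CPM for standard OPCs. The defining markers of excitatory neurons, Slc17a7 and Slc17a6, had at most 1 and 2 counts in any library. The other neuron markers listed reached more, such as 34 for Gad2, 73 for Gad1 and 177 for Syt1. Most of the summed level came from Map2, Dcx and Tubb3 (means of 133.6, 106.3 and 98.9 CPM in mild-hypo-OPCs). Below the filter, mean levels of Gad2 and Rbfox3 were lower in mild-hypo-OPCs (3.01 against 4.10 and 2.67 against 3.36 CPM). So were those of the nearly absent Slc17a7 and Slc17a6, while that of Snap25 was higher. Microglia markers summed to 42.8 to 61.5 CPM against 21.2 to 42.2 CPM, ranges that only just separated. Of 8 listed 3 were tested and 2 rose, C1qb (0.76, SE 0.26, edgeR, adjusted p = 0.0355) and Csf1r (0.61, SE 0.19, adjusted p = 0.0231). Below the filter the directions were mixed. Mean levels of Aif1 and Ptprc were lower in mild-hypo-OPCs (1.87 against 3.13 and 2.66 against 3.37 CPM), and those of Cx3cr1, Itgam and P2ry12 were higher. Oligodendrocyte markers summed to 12938 to 14290 CPM against 8796 to 12754 CPM, with 5 of 8 higher, led by Cldn11 (0.54, SE 0.11, edgeR, adjusted p = 0.00155), Mag (0.47, SE 0.10) and Myrf (0.38, SE 0.13).

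Among 7 tested astrocyte markers of 8 listed, Aqp4 (0.79, SE 0.13, edgeR, adjusted p = 0.000287) and Slc1a3 were higher and S100b was lower (-0.46, SE 0.09, adjusted p = 0.00145). When scaled by library size alone these were 1.22, 0.69 and -0.02, beside a median of 0.43 over all genes. The sums overlapped, at 851.7 to 995.4 and 803.6 to 906.1 CPM. Of the OPC markers 1 of 7 was higher, Gpr17 (0.45, SE 0.09, edgeR, adjusted p = 0.000842), and the median was 0.08. None of the 8 vascular and mesenchymal markers passed the filter, Cdh5 had no count, and their summed level was 0.996 to 3.02 CPM against 0 to 2.22 CPM. The part of these cells in the levels of Cacng4, Gria1 and Grik5 was not tested.

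Gene span also moved with the fold changes. With genes split by span into 5 bins of like size, the median log2 fold change was -0.26 in the bin of the shortest spans and 0.06 in that of the longest, and 37.3% and 5.56% of their genes were called lower. All 10 members have long spans, from 42.1 kb for Cacng5 to 882.4 kb for Grm7, and the spans of Cacng4 (62.1 kb) and Grik5 (62.0 kb) lie in the bin below the longest, whose median was 0.08. Beyond the removal of this trend, the part of span in the members' levels was not tested.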

How the data were processed

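Strand-specific RNA-seq was run on 12 libraries labelled as rat OPCs. Per the labels and methods, the authors trimmed reads with Trimmomatic 0.36, checked them with FastQC 0.11.9, aligned them with STAR 2.7.9a to mRatBN7.2 and counted genes by RSEM 1.3.3. The deposited table gives raw counts, in whole numbers, for each Ensembl gene, and 0 columns were left unused. How the RSEM estimates were made whole is not given in the sources used here.

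The filter on low counts was a CPM above 10 in 1 library or more, which kept 8938 genes. Differential expression was computed with edgeR 4.0.16 in R 4.3.3 (TMM, glmQLFit, glmQLFTest, condition only, Benjamini-Hochberg at 0.05); CPM was taken over the counts of kept genes, with TMM factors. Alternatives used limma 3.58.1, DESeq2 1.42.0, other scalings and filters, thinning, and each library left out. Shares were tested in SciPy 1.17.1, and figures drawn with matplotlib 3.10.9. The scripts were tested on simulated data. A fit without the filter (17391 genes) covers the 3 members below it; its own alternatives were chosen after seeing the data. Counts of 2 libraries of a group differed beyond sampling noise in every pair (chi-square per degree of freedom of at least 3.39).

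The members and lists were chosen with earlier results of these data known. Named were all members, the called genes of each list with the 3 largest changes, the most abundant or defining markers, and the 3 genes most like the most abundant tested member of each class; some further list genes were named after their values were seen. Gene spans and promoters came from RefSeq (GRCr8), matched by symbol, with spans for 95.6% of genes kept; no gene lengths were used, so levels are not compared between genes. Intervals on summed counts cover counting error only. Total counts, lower in standard OPCs, limit precision there. Some listed genes are not reported here.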

Additional observations from a re-analysis of the deposited data

Results flagged for a closer look

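Among 34 groups of 6 values, 6 held a library whose gap to the nearest other library was large for the range of its group by Dixon's test at its 95% critical value, which by chance flags about 1 group in 20. All 6 were standard OPC libraries. Replicate 4, which has the lowest total count, gave 3 of them: Gria4 at 50.6 CPM (the others 22.9 to 31.7), its share of the AMPA subunit counts at 27.8% (13.4 to 16.5%), and the share of Gria2 at 40.9% (50.2 to 54.7%). Replicate 5 gave Grm7 at 2.67 CPM (0 to 0.556) and, from the same 4 counts, the share of Grm5 among the metabotropic genes at 76.5% (96.2 to 100%). In replicate 1, Gria3 was at 48.2 CPM (55.3 to 59.1). None of these values belongs to a gene or share called between the groups.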

How the results depend on the processing

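Of 21 results recomputed, 2 kept their direction and their side of the threshold in every alternative run. These were the number of members called lower, 0 throughout, and the Cacng4 share, which passed in none. The number of members called higher was 2 with DESeq2, upper-quartile scaling, no filter or ribosomal RNA rows removed, 7 with library size only, 0 with filterByExpr, log2 total count as a covariate, thinning or removal of the gene span trend, and 0 to 2 when 1 library was left out. Genes called higher numbered 1136 with upper-quartile scaling, 5515 with library size only, 0 with the covariate and 398 after thinning. With filterByExpr, ribosomal RNA rows removed and the gene span trend removed they numbered 613, 739 and 845. With 1 library left out they numbered 436 to 823. Genes called lower numbered 405 with library size only and 43 with the covariate. With filterByExpr, ribosomal RNA rows removed and the gene span trend removed they numbered 1573, 1471 and 1201, and 1165 to 1664 with 1 library left out. Log2 fold changes changed sign for Gria2 with upper-quartile scaling (0.040), library size only (0.41) and no filter (0.0061), and ran from -0.072 to 0.036 when 1 library was left out; for Gria3 with library size only (0.29); for Gria4 with upper-quartile scaling (0.018), library size only (0.39) and the covariate (0.080), and from -0.11 to 0.10 with 1 left out; for Grik2 with library size only (0.35), and from -0.13 to 0.0012 with 1 left out; for Grm5 (-0.092) and Cacng4 (-0.034) with the covariate; and for Grm7 with thinning (0.15) and the covariate (0.81), and from -0.78 to 0.77 with 1 left out. Differences of shares, in percentage points, were 0.952 for Gria1, -0.76 for Gria2, 0.734 for Gria4 and -2.21 for Grm5 when medians were compared, and 0.764 for Gria4 and -0.48 for Grm5 after thinning. With 1 library left out they ran from -0.54 to 2.21 for Gria2, -2.48 to -1.58 for Gria3, -1.13 to 1.75 for Gria4, -3.96 to -2.42 for Grik2 and -2.24 to 2.47 for Grm5. Same-numbered libraries did not deviate together (correlations from -0.28 to 0.30, and only replicate 1 correlated best with its own number), so the numbers are not taken as pairs. A replicate block gave 572 genes called higher and 1471 lower, 1 member called higher (Cacng4, 0.28, edgeR, adjusted p = 0.0443), and a Gria1 share difference of 0.939 whose adjusted p of 0.219 was lost. Except where the construction shows it, as with fewer libraries or counts, the cause was not tested. Shares of counts per coding length were not run, for want of a table of lengths. Totals of 1356079 to 2797513 counts in standard OPCs limit what can be said of Gria1, Grm7 and Cacng5.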
